A study of Mus musculus with 2 samples.

Results

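Among the cells of small B16F10 tumours was a group with very little mitochondrial RNA and with transcripts of Nupr1, Atf5 and other genes of the integrated stress response. The cells were chosen by 2 readouts. Each had mt- transcripts, those of the 13 protein genes of the mitochondrial genome, below 2% of its unique molecular identifiers (UMIs, 1 per captured RNA molecule), and each had a UMI of at least 3 of 8 panel genes, Azgp1, Grb14, Pla2g2e, Nupr1, Atf5, Akr1b7, Cth and Angptl6. Of 11778 barcodes, 6680 had 200 to 5000 genes, at least 1000 UMIs and at most 7.5% mt- UMIs, and 115 of these 6680 met the rule and are called panel cells here. The panel and the mt- limit describe how the cells were picked, so the levels of those genes are no finding.

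B16F10 is a mouse melanoma cell line that was grown under the skin of mice of 2 genotypes, all carrying Rosa26::CreERT2, a tamoxifen-inducible recombinase active in every tissue, and all given tamoxifen. Atf4 WT/WT hosts kept both Atf4 alleles and Atf4 Δ/Δ hosts had lost exons of both. The deletion concerns host cells, since the injected melanoma cells carried their own Atf4 in both. Each genotype gave 1 library of 2 pooled tumours from male and female mice aged 11 weeks, so host genotype, tumour pool and library cannot be told apart, no test between genotypes was possible, and all 95% intervals below cover counting error only.

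The integrated stress response is the pathway by which a cell short of amino acids, with misfolded protein in the endoplasmic reticulum or with failing mitochondria lowers general protein synthesis while raising that of the transcription factor ATF4. ATF4 then raises a programme of its own, which holds the factors ATF5, CHOP (Ddit3), ATF3 and NUPR1, the pseudokinase TRIB3, enzymes that make asparagine, serine, proline and cysteine, amino acid carriers and the hormone FGF21. Melanoma cells are recognised by pigment genes, namely Pmel (melanosome fibres), Dct and Tyrp1 (melanin synthesis) and Mlana (melanosome protein).

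Of the panel genes, Nupr1 encodes a small stress-induced chromatin protein, Atf5 a transcription factor linked to the mitochondrial stress response, and Cth the enzyme that makes cysteine from cystathionine. Grb14 encodes an adaptor that binds the insulin receptor, Azgp1 a secreted lipid-mobilising glycoprotein, Pla2g2e a secreted phospholipase, Akr1b7 an aldo-keto reductase and Angptl6 an angiopoietin-like secreted protein. ATF4 with a C/EBP partner binds composite elements whose core is TGATGNAA. This core was searched on both strands in the 250 bases before each start in the RefSeq promoter table (GRCm38.p6) and was found in 1056 of 27025 genes (3.91%). It was present in 1 of 7 panel genes with an entry, in 5 of 15 stress response regulators and in 3 of 13 amino acid synthesis enzymes. Of the 12 genes with the highest and the 12 with the lowest ratios named below, it was present in 1 of 8 and 1 of 9 with an entry. The matches are shown for 6 genes that stood higher in panel cells, with the core in capitals in whichever orientation it was found. Matches not shown were in Vldlr (log2 ratio 0.24), Jdp2 (0.84), Got1 (0.70) and Kif2c (-2.71), of which Kif2c was lower in panel cells. All matches describe the letters only.

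Nupr1, chr7:126625562-126625591, strand minus: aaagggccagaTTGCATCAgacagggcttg
Atf3, chr1:191183425-191183454, strand minus: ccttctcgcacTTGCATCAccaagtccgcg
Chac1, chr2:119351038-119351067, strand plus: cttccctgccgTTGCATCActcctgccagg
Asns, chr6:7693214-7693243, strand minus: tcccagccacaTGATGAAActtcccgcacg
Pycr1, chr11:120643833-120643862, strand minus: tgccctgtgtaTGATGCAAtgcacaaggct
Fgf21, chr7:45615491-45615740, strand minus: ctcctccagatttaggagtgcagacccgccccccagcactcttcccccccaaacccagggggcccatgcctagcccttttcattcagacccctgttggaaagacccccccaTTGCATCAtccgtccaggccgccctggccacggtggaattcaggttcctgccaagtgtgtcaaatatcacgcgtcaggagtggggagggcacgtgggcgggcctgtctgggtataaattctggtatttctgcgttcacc

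The Fgf21 window is shown whole because no GENCODE vM21 exon overlaps it. In Nupr1 the core began at -110 from the RefSeq start and in Asns at -23, and in both it overlapped an exon of that annotation. In Atf3, Chac1, Pycr1 and Fgf21 it began at -110, -193, -103 and -139 and overlapped none, while the rest of the windows of Atf3, Chac1 and Pycr1 did reach exons. The gene spans 7:126623249-126630861 for Nupr1, 7:45613886-45615490 for Fgf21 and 7:44812256-44816658 for Atf5, all on the minus strand of GRCm38.

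The panel cells came almost wholly from the Atf4 Δ/Δ host library. It held 111 of them among 3209 cells (3.46%, 2.85 to 4.15), and the Atf4 WT/WT host library held 4 among 3471 (0.115%, 0.0314 to 0.295), a log2 ratio of 4.91 (3.51 to 6.81). Part of this gap lay in the number of low-mt cells, since 277 cells of the Atf4 Δ/Δ host library and 113 of the Atf4 WT/WT host library had under 2% mt- UMIs. Part lay in the panel, which 40.1% of the former and 3.54% of the latter met. These low-mt cells were of any type. Of those in the melanoma gate described below, 84 met the panel and 54 did not in the Atf4 Δ/Δ host library. In the Atf4 WT/WT host library 3 met the panel and 30 did not. Below 0.5% mt- UMIs, 59 of 102 cells of the Atf4 Δ/Δ host library (57.8%, 47.7 to 67.6) and 0 of 27 of the Atf4 WT/WT host library (upper bound 12.8%) met it. The libraries held 38290024 and 38417113 UMIs in all, but the cells to which the rule was applied had medians of 7577 UMIs in the Atf4 Δ/Δ and 5294 in the Atf4 WT/WT host library, and deeper cells show more panel genes. With every cell thinned to 1000 UMIs the shares were 0.748% and 0.0288%. The 10 barcodes that the libraries shared included no panel cell.

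The panel cells were of middling depth among melanoma cells. The 111 cells of the Atf4 Δ/Δ host library had a median of 8480 UMIs (1244 to 24289), 2493 genes and 0.426% mt- UMIs (0.0364 to 1.96), with a median of 5 panel genes each. In the same library melanoma-gated cells had medians of 10729.5 UMIs at 2 to 7.5% mt- UMIs, 8088 above 7.5%, and 3377 below 2% with under 3 panel genes. The 4 cells of the Atf4 WT/WT host library had a median of 6936 UMIs (3975 to 9046) and 1.63% mt- UMIs (1.03 to 1.96), so that they lay nearer the limit. Just inside and outside the limit in the Atf4 Δ/Δ host library, 18 cells with at least 3 panel genes had 1.5 to 2% mt- UMIs and 16 had 2 to 2.5%, with medians of 4 and 3.5 panel genes. Just inside and outside the panel rule, 31 low-mt cells had 3 panel genes and 22 had 2. At both limits the cells thus ran on into their neighbours, as the plot of mt- share against panel genes shows. Further in they were uneven. Of the 111, 59 had under 0.5% mt- UMIs, 24 had 0.5 to 1%, 10 had 1 to 1.5% and 18 had 1.5 to 2%.

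**Figure D1:**
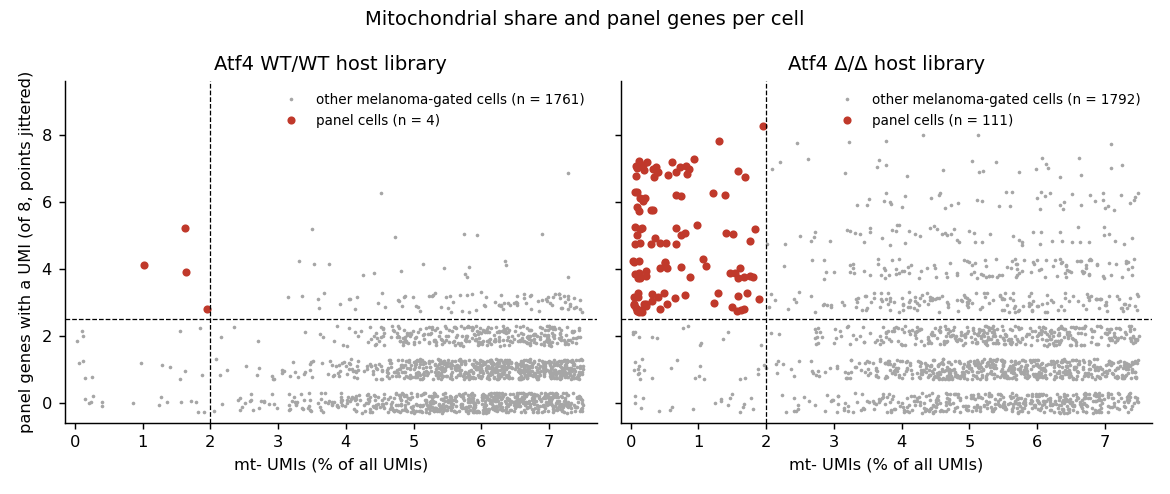
Each point is 1 cell, placed by its mt- UMIs as a percentage of all UMIs and by how many of the 8 panel genes had a UMI (jittered), for the Atf4 WT/WT host library (left) and the Atf4 Δ/Δ host library (right), with the limits of the rule dashed. The 4 and 111 panel cells are red, and cells with at least 3 panel genes also continue to the right of the mt- limit.

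To ask which cells these were, pigment and host genes were compared with a reference, the melanoma-gated cells with 2 to 7.5% mt- UMIs. The gate asked for a UMI of at least 3 of Pmel, Dct, Mlana and Tyrp1 and none of Ptprc (leukocytes), Dcn (fibroblasts) or Pecam1 (endothelium), and left 1738 reference cells in the Atf4 Δ/Δ host library (median 5.50% mt- UMIs) and 1731 in the Atf4 WT/WT host library (median 11207 UMIs, 6.03%). Of the 111 panel cells, 84 passed it (75.7%, 66.6 to 83.3), and 3 of the 4 did in the other library.

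Pooled over cells, the panel cells carried pigment RNA at the level of melanoma cells, but single panel cells varied more. In the Atf4 Δ/Δ host library Dct stood at 4431 CPM (UMIs of the gene per 1000000 UMIs of the pooled cells) in panel cells and 4454 in reference cells, a log2 ratio of -0.01 (-0.05 to 0.04). Pmel stood at 1234 against 1648 CPM, Tyrp1 at 1421 against 1684 CPM, and Mlana at 1832 against 1313 CPM. Per cell, the 4 genes together had a median of 6133 CPM in panel cells, with quartiles of 2369 and 11697. Reference cells had a median of 8884 CPM, with quartiles of 6555 and 11074. The reference was picked by these same genes and the panel cells were not. Immune-gated cells of the same library, with a median of 2556 UMIs and no pigment gate, gave 1070 CPM of Dct and 512 CPM of Pmel, which is the background for pigment RNA in this library. The 15 genes of the pigment list together came to 10381 CPM in panel cells, 10520 in reference cells and 2744 in immune-gated cells, so that panel and reference cells differed by -0.02 on the log2 scale, a sign that turns under TMM scaling. In the 4 cells of the Atf4 WT/WT host library Dct was 5466 CPM and Mlana, with 14 UMIs, 521 CPM, against 5561 and 1506 CPM in that library's reference.

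Lineage genes moved in both directions. Mitf, the master regulator of the melanocyte lineage, had 157 CPM in panel cells and 347 CPM in reference cells of the Atf4 Δ/Δ host library, a log2 ratio of -1.15 (-1.39 to -0.91). The receptor tyrosine kinase Met fell with it, at 153 against 319 CPM, while Pax3 (185 against 235 CPM) and the melanosomal glycoprotein Gpnmb (1347 against 1413 CPM) were closer. Of the 13 lineage genes, 11 were tested, 3 fell past 2-fold (Mitf, Met and Erbb3) and 1, S100a1, rose, against 6.88% of all genes tested called lower and 2.93% higher. The list came to 2600 CPM in panel cells and 2814 in reference cells.

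The host genes of the gate were near 0, whereas some longer lists of host markers were not. Among the 111 cells Ptprc had 1 UMI, Dcn had 2 and Pecam1 had 5, all outside the gate, which by definition admits none of them. Of the 4 cells in the other library 1 held 2 UMIs of Ptprc. The female transcript Xist had 0 UMIs, which allows up to 3.09 CPM, and Ddx3y, Eif2s3y, Kdm5d and Uty also had 0. The list of 5 sex-linked genes summed to only 3.07 CPM in reference cells. The 10 macrophage markers summed to 25.8 CPM in panel cells, 155 in reference cells and 10509 in immune-gated cells, with 4 of the 10 at 0. All 10 T and NK cell markers, all 6 pericyte markers and all 6 erythroid markers were at 0. In reference cells these 3 lists summed to only 0.32, 5.24 and 0.16 CPM, so a 0 tells little, least of all for the first and the last. Endothelial markers summed to 47.4 against 26.7 CPM in reference cells, keratinocyte markers to 91.7 against 40.6 and skeletal muscle markers to 38.1 against 20.3 CPM. Sebocyte markers came to 177 against 156 CPM and fibroblast markers to 46.4 against 106 CPM. The pan-immune list came to 431 CPM in panel cells, 485 in reference cells and 4372 in immune-gated cells. The label of stress cells with low mitochondrial RNA was thus kept, on melanoma cells, for the 84 that passed the gate. That choice rests on the gate's own genes.

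The 27 cells outside the gate were shallower, with a median of 4779 UMIs and 0.173% mt- UMIs. Of these, 8 had a UMI of 1 pigment gene, 12 of 2, 1 of 3 and 6 of 4, and 7 had a UMI of a host gene. Dct came to 4001 CPM in them and Mlana to 1614 CPM, but Pmel to 311 CPM, below the 512 CPM of immune-gated cells. Azgp1 came to 357 CPM in the 27 cells and 355 in the 84, whereas Nupr1 was higher outside the gate, at 900 against 525 CPM. No doublets were removed, and the doublet caller Scrublet marked 0 of the 111 and 1 of the 4 panel cells.

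As the rule asks, the panel genes were high. In the Atf4 Δ/Δ host library Nupr1 had 583 CPM in panel cells and 101 in reference cells, and was seen in 87.4% and 37.7% of them. With every cell thinned to 1000 UMIs it was seen in 36.9% and 9.84%, and in 6.02% of immune-gated cells (10.8% unthinned). Azgp1 had 355 against 37.5 CPM, Pla2g2e 275 against 82.5, Atf5 260 against 49.7, Grb14 122 against 14.7, Cth 114 against 18.8, Angptl6 73.1 against 8.48 and Akr1b7 58.7 against 6.62 CPM. Nupr1 and Atf5 were both seen in 76 of the 111 cells. In the 4 cells of the Atf4 WT/WT host library Nupr1 had 14 UMIs, Atf5 and Pla2g2e had 6 each, and Grb14 and Angptl6 had 0.

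Panel genes were also seen in the reference, where 425 of 1738 cells (24.5%, 22.4 to 26.5) of the Atf4 Δ/Δ host library and 113 of 1731 (6.53%, 5.41 to 7.80) of the Atf4 WT/WT host library had at least 3. Nupr1 stood at 101 CPM in the former reference and 19.5 CPM in the latter, and Fgf21 at 8.42 and 0.21 CPM. These 2 values per gene are 1 library each. Atf4 itself, whose own transcript the rule did not use, stood at 288 CPM in panel cells and 207 in reference cells of the Atf4 Δ/Δ host library, and at 595 CPM, from 16 UMIs, and 228 CPM in the Atf4 WT/WT host library.

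Beyond the panel, genes past 2-fold with an interval off 0 were counted as called. In the Atf4 Δ/Δ host library 336 of 11481 genes tested were higher in panel cells than in reference cells (2.93%) and 790 were lower (6.88%), with panel and mt- genes left out of both and a median log2 ratio over all genes tested of -0.12. With TMM scaling in place of CPM, which moved every ratio up by the same amount, the split was 471 higher and 523 lower. The 12 genes with the highest ratios were Lcn2, Nrip2, Cdsn, Sh2d6, Ccl5, Gm7967, Rdm1, Btg2, Cox6a2, Adh7, Fgf21 and Steap1, with log2 ratios from 5.42 down to 2.79. They differed in how many cells carried them.

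Several of the 12 rested on few cells. Lcn2, the iron-binding lipocalin, had 121 UMIs in 13 cells, 96 of them in 2, and its log2 ratio was 3.17 (2.42 to 3.87) without those 2. The chemokine Ccl5 had 247 UMIs in 13 cells, 221 of them in 4, and 0.21 (-0.42 to 0.78) without those 4. Fgf21, a hormone released under mitochondrial and amino acid stress, had 59 UMIs in 19 cells, 41 of them in 4, and 1.19 (0.40 to 1.90) without them.

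Others were spread over more cells. Steap1 had 85 UMIs in 41 cells (87.6 against 12.7 CPM), and Cdsn, the corneodesmosin of cornified epithelium, had 64 UMIs in 31 cells (65.9 against 5.83 CPM). The antiproliferative gene Btg2 had 112 UMIs in 38 cells (115 against 14.0 CPM, log2 3.04). In immune-gated cells Steap1 and Cdsn had no UMI in any cell, whereas 31.3% of cells had one of Btg2. Chchd10 was seen in every panel cell of this library. It encodes a protein of the space between the mitochondrial membranes and was named after its values were seen. It had a UMI in 111 of 111 cells and stood at 3227 against 1047 CPM, a log2 ratio of 1.62 (1.57 to 1.68). After thinning it was seen in 91.9% of panel, 57.3% of reference and 9.64% of immune-gated cells, and in the Atf4 WT/WT host library it stood at 2008 against 660 CPM. Single panel cells ran from 804 to 7411 CPM with a median of 3236, and reference cells had a median of 875, so that the ranges overlapped while the medians stood well apart.

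**Figure D2:**
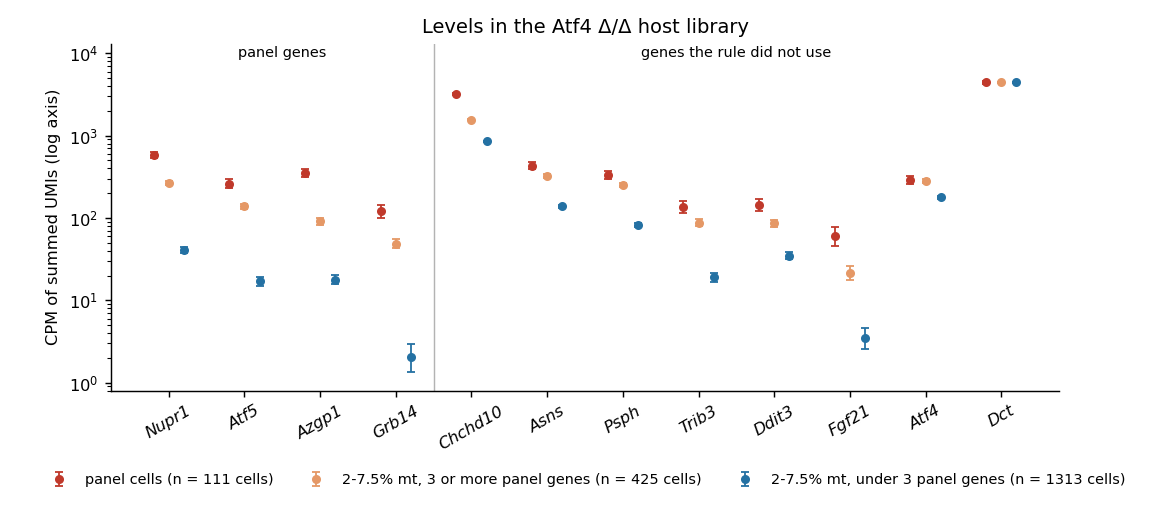
CPM of summed UMIs (log axis) in the Atf4 Δ/Δ host library with exact 95% Poisson intervals, for panel cells (red), cells with 2 to 7.5% mt- UMIs and at least 3 panel genes (orange) and those with under 3 (blue), with the panel genes that the rule used left of the grey line. Right of it, Chchd10 runs from 3227 CPM in panel cells down through the other classes, while Dct is level in all.

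Regulators of the integrated stress response stood higher as a group, against the background of 2.93% of genes called higher. The panel that picked the cells includes Nupr1, Atf5 and Cth of the same programme, so a rise in related genes may follow from that choice. Of 17, 16 were tested and 7 were called higher and 0 lower, with a median log2 ratio of 0.93, and their sum was 2013 CPM in panel cells and 1049 in reference cells. Against the 184 reference cells without a G2/M UMI the median was 0.21 and 0 of 16 were called. Trib3, the pseudokinase that restrains AKT and ATF4, had 136 against 37.7 CPM (log2 1.85, 1.57 to 2.12), and was seen after thinning in 12.6% of panel, 4.14% of reference and 0% of immune-gated cells. Ddit3, which encodes the pro-apoptotic factor CHOP, had 144 against 48.7 CPM, Cebpb 140 against 46.6 and Atf3 96.8 against 32.2. The glutathione-degrading enzyme Chac1 had 21.6 against 7.20 CPM and Ppp1r15a, which ends the response by dephosphorylation, 52.5 against 23.6. Of the 21 UMIs of Chac1, 11 lay in 25 cells with little of the nuclear RNA Malat1, described below. In the other 86 cells its log2 ratio was 0.71 (-0.38 to 1.63). Without the 2 cells with most UMIs of each gene, Ppp1r15a was at 0.91, and Trib3, Ddit3, Cebpb and Atf3 were at 1.70, 1.36, 1.47 and 1.34. Atf4 (log2 0.48), Cebpg (0.92), Eif4ebp1 (0.82) and Nars (0.63) were above the reference without reaching 2-fold, and Sesn2 (-0.05) and Ddit4 (0.22) had intervals that held 0.

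Single cells overlapped widely for this list. Its level per cell ran from 0 to 7966 CPM in panel cells with a median of 1946, and from 0 to 14544 in reference cells with a median of 888. The 4 cells of the Atf4 WT/WT host library had 16 UMIs of Eif4ebp1, 5 of Trib3, 3 of Ddit3 and 0 of Fgf21.

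Amino acid synthesis stood higher too, beside 2.93% of all genes tested called higher. Of 15 enzymes, all tested, 6 were called higher and 0 lower, with a median log2 ratio of 0.68, and against the reference cells without a G2/M UMI 0 of 13 were called, with a median of 0.42. Asns, asparagine synthetase, had 433 against 188 CPM (1.20, 1.05 to 1.35), Psph, the last step of serine synthesis, 330 against 128 (1.37, 1.20 to 1.54), and Aldh1l2, a mitochondrial folate enzyme, 102 against 36.1. Pycr1 (proline), Gpt2 (alanine) and Cbs (cystathionine) were called on 19, 20 and 14 UMIs. The folate enzymes Shmt2 (-0.03) and Mthfd1l (-0.48) did not share the rise, and Mthfd2 was at 0.38. Of 11 amino acid carriers tested, 4 were called higher, namely the cystine carrier Slc7a11 (1.28), the neutral amino acid carriers Slc1a5 (1.16) and Slc1a4 (1.46) and the glycine carrier Slc6a9 (1.91), with a list median of -0.06. Of 18 aminoacyl-tRNA synthetases, 1 was called higher, which is near the share over all genes, with a median of 0.25.

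Chaperones of the endoplasmic reticulum stood moderately higher, beside 2.93% of all genes tested called higher. Of 15, 2 were called higher (0 against the reference cells without a G2/M UMI), Hspa5 (BiP, 1902 against 930 CPM) and its cochaperone Dnajb9 (112 against 35.5 CPM), and the list median was 0.60. Hsp90b1 (0.43), Calr (0.23) and Manf (0.74) were under 2-fold. The level of the list per cell had a median of 4430 CPM and an upper quartile of 11255 in panel cells, against 3899 and 5144 in reference cells, so that the difference lay in the upper part of the range. Without the 4 cells with most Hspa5 its log2 ratio was 0.78 (0.70 to 0.86).

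Transcripts of the mitochondrial genome were low by the rule, at 7096 CPM in panel cells and 54228 in reference cells. Each of the 13 was lower, with mt-Nd6 at 1 UMI. Among mt- UMIs, mt-Atp6 held 27.0% in panel and 26.6% in reference cells, mt-Co2 13.8 and 16.5%, mt-Nd1 10.5 and 7.65%, and mt-Atp8 0.508 and 0.156%. The nuclear genes of the same machines, which the rule did not use, were not low. Of 37 nuclear subunits of complex I, 0 were called, with a median log2 ratio of 0.12, and 0 were called of the 9, 11 and 14 tested for complexes III, IV and V, with medians of -0.06, 0.21 and 0.08. Of 23 genes for mitochondrial DNA upkeep and expression, 1 was called higher and 2 lower, close to the 2.93% and 6.88% of all genes tested. These were the methyltransferase Tfb1m, and the RNA-degrading Pnpt1 (4 UMIs) and the RNA-processing Elac2 (8 UMIs), with a list median of -0.33. Tfam, which packages and transcribes mitochondrial DNA, was at -0.73 (-1.37 to -0.16) and Lrpprc, which stabilises its transcripts, at -0.64 (-1.27 to -0.06). Of 15 mitochondrial chaperones and proteases 0 were called, and the partners Hspd1 (-0.68) and Hspe1 (0.60) stood on either side of 0. Genes of mitochondrial ribosomes had a median of -0.26 over 22.

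Cell cycle genes were low. All 17 genes of the G2/M list were called lower, with a median log2 ratio of -1.89 and a sum of 559 against 2015 CPM, as were 9 of 16 S phase genes (median -1.29), against a background of 6.88%. Of the 12 genes with the lowest ratios, 10 were mitotic, namely Anln, Pimreg, Cenpf, Aspm, Bub1, Kif20a, Arhgap11a, Knl1, Spdl1 and Kif2c, and Anln, which shapes the cleavage furrow, was at 4.12 against 50.8 CPM. The other two were C1qb and C1qa, complement genes of macrophages, with 4 and 6 UMIs in panel cells. Seen per cell, 52 of 111 panel cells (46.8%) and 184 of 1738 reference cells (10.6%) had no G2/M UMI. At 1000 UMIs each, 18.0% of panel and 58.2% of reference cells had one.

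Among the other groups, antioxidant and iron genes stood higher and sterol and fatty acid genes lower. The counts in this paragraph stand beside 2.93% of all genes tested called higher and 6.88% called lower. Of 15 antioxidant and iron genes, 3 were called higher beside 2.93% of all genes with a median of 0.59, namely Hmox1 (309 against 123 CPM), Srxn1 (114 against 37.8 CPM) and Nqo1 (19.6 against 5.99 CPM), and the ferritin subunit Fth1 stood at 13119 against 7541 CPM. Of 12 p53 and arrest genes tested, Btg2, Gadd45a and Trp53inp1 were higher and Gadd45b lower, and Cdkn1a was at 0.75. Sterol and fatty acid genes had a median of -0.62, with 2 of 15 called lower, the desaturase Scd2 and the fatty acid synthase Fasn, and cytosolic ribosomal protein genes had a median of 0.38 with 0 called. Isg15 (1.93) and Rsad2 (1.27) were called among 12 interferon genes. Glycolysis and hypoxia genes had 0 calls among 16 and 12.

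To ask which of these differences went with the mt- share and which with the panel, the cells of the Atf4 Δ/Δ host library were set out in 4 classes by both. With mt- share held at 2 to 7.5%, the 425 cells with at least 3 panel genes were above the 1313 with fewer by 0.88 (0.84 to 0.92) in the summed stress regulators, by 0.85 in amino acid synthesis and by 0.71 in endoplasmic reticulum chaperones, and their mt- sum differed by -0.07. The split itself used Nupr1, Atf5 and Cth, genes of the same programme, so higher values on that side may follow from the choice. The lists were thus higher with the panel at ordinary mt- levels, as a description and not as a test. With at least 3 panel genes on both sides, the 84 gated panel cells were above the 425 by 0.26 (0.18 to 0.34), 0.13 and 0.10 in the same lists, small differences. G2/M genes were lower in the 84 by a log2 ratio of -1.34 (-1.47 to -1.21) and ribosomal protein genes higher by 0.29. The panel was not equal in these 2 classes, with medians of 5 and 4 panel genes. Its summed level per cell had a median of 1893 CPM in all 111 panel cells and 687 CPM in the 425. The mt- share and the panel level were thus not separated in this comparison. With the panel under 3, the 54 low-mt cells were above the 1313 by 0.94 (0.79 to 1.09) in stress regulators, but by 0.32 in amino acid synthesis and by -0.34 in endoplasmic reticulum chaperones. These 54 cells were shallow, with a median of 3377 UMIs against 10529 in the 1313 and 11426 in the 425, and their part in these values was not tested.

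The same lists were followed over the whole range of mt- share in melanoma-gated cells. In the Atf4 Δ/Δ host library stress regulators came to 1955 CPM below 0.5% mt- UMIs (60 cells), 1661 at 1 to 2%, 1286 at 3 to 4% and 977 at 6 to 7.5% (636 cells), and the share of cells with at least 3 panel genes went from 65.0% to 22.2% between the first and the last of these. Chchd10 went from 3243 to 1089 CPM. In the Atf4 WT/WT host library stress regulators came to 1182 CPM below 0.5% mt- UMIs (13 cells), 1760 at 2 to 3% (31 cells) and 719 at 6 to 7.5% (883 cells), so that its highest value was not at the lowest mt- share. These low bins held few cells in that library.

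**Figure D3:**
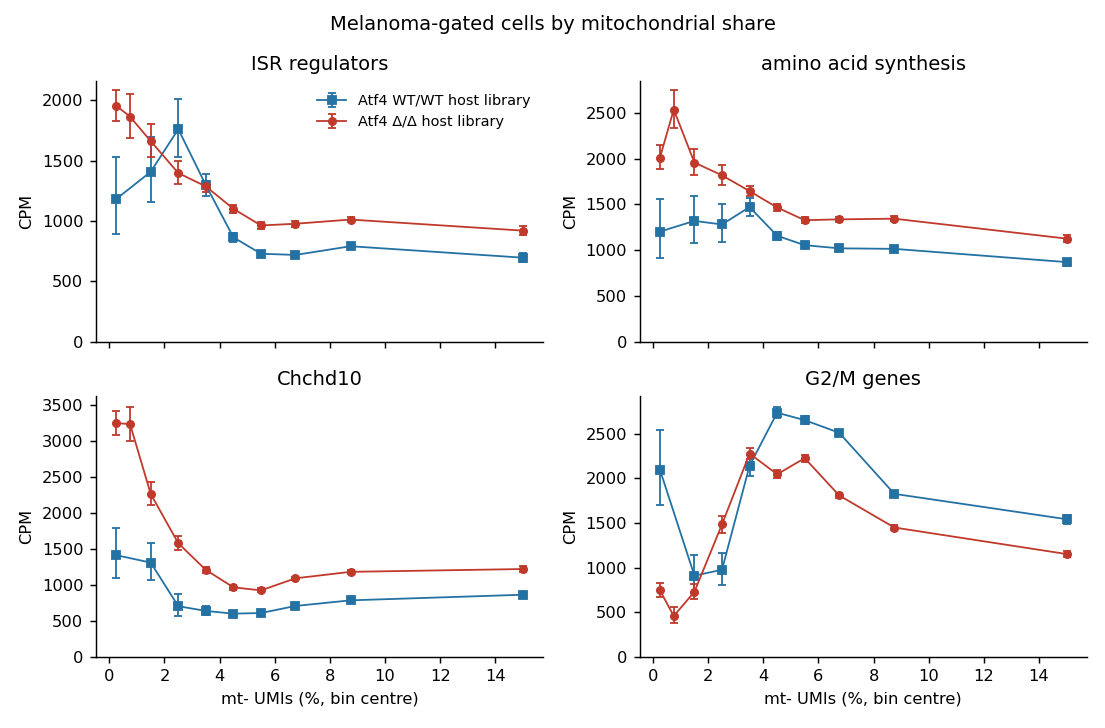
CPM of summed UMIs with exact 95% Poisson intervals against the mt- share (bin centre, %) of melanoma-gated cells, including those over 7.5% and leaving out bins of under 10 cells, for stress response regulators, amino acid synthesis enzymes, Chchd10 and G2/M genes in the Atf4 WT/WT (blue squares) and Atf4 Δ/Δ (red circles) host libraries. In the Atf4 Δ/Δ host library stress regulators fall from 1955 to 977 CPM between the lowest bin and 6 to 7.5% while G2/M genes are lowest at the low end.

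Because fewer panel cells than reference cells held a G2/M UMI (59 of 111 did), they were also set against the 184 reference cells without a G2/M UMI (median 7480.5 UMIs and 5.28% mt- UMIs, 35.9% with at least 3 panel genes), a comparison added after the first results were seen. The distance in stress regulators shrank to 0.20 (0.11 to 0.29) on the summed list, with a median of 0.21 and 0 of 16 called. Those 184 cells were themselves above the whole reference by 0.74 (0.68 to 0.80). Amino acid synthesis stayed at 0.51 (0.42 to 0.60), endoplasmic reticulum chaperones were at 0.26, and Trib3 and Ddit3 at 0.64 and 0.60. Chchd10 stayed at 1.07 (0.99 to 1.15), and Steap1 and the DNA repair gene Rdm1 at 1.89 and 3.43. Interferon genes turned, from 0.56 on the summed list against the whole reference to -0.38, and the S phase list turned from -1.24 to 0.99, the 184 having been picked for lack of G2/M RNA. In all, 163 of 7858 genes were higher and 493 lower.

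With cells without a G2/M UMI on both sides, 52 panel cells were above the 184 by 0.43 (0.31 to 0.54) in stress regulators, 0.40 in amino acid synthesis, 0.49 in endoplasmic reticulum chaperones and 1.26 (1.16 to 1.37) in Chchd10. Among those with 5000 to 15000 UMIs, 31 against 128 cells, Chchd10 was at 1.24 and Fgf21 at 2.46 (1.55 to 3.39), while Lcn2, with 4 and 27 UMIs, was at -0.62 (-2.59 to 0.90). The part of G2/M RNA in the stress difference was not tested further.

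**Figure D4:**
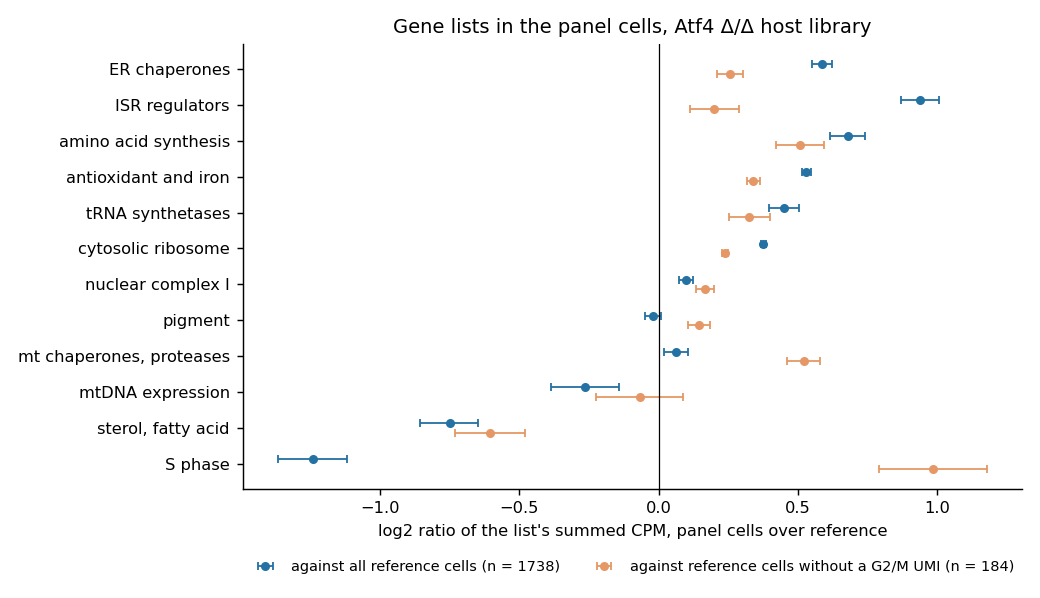
Log2 ratio of each list's summed CPM in the 111 panel cells of the Atf4 Δ/Δ host library over all 1738 reference cells (blue) and over the 184 reference cells without a G2/M UMI (orange), with 95% counting intervals. Stress regulators move from 0.94 to 0.20 between the references, amino acid synthesis from 0.68 to 0.51, and the S phase and pigment lists change sign.

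Malat1, a long RNA kept in the nucleus, split the panel cells. Its sum was 12000 CPM in panel cells and 3991 in reference cells of the Atf4 Δ/Δ host library (log2 1.59), and 10337 and 3264 CPM in the other. The median panel cell had 7748 CPM and the median reference cell 2815. At the same time 25 of 111 panel cells (22.5%, 15.1 to 31.4) had under 500 CPM, and 19 of these had none, against 5.01% of reference cells. This was not particular to the panel, since 21 of 54 low-mt melanoma cells with under 3 panel genes (38.9%, 25.9 to 53.1) were also under 500 CPM, as were 12 of 30 (40.0%) in the Atf4 WT/WT host library.

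The 25 cells with little Malat1 were small libraries. They had a median of 4216 UMIs, 1296 genes and 0.166% mt- UMIs, and 14 passed the melanoma gate. The nuclear RNA Neat1 had 33.0 CPM in them and 308 CPM in the other 86. Pmel came to 527 and 1335 CPM in the 2 sets and Dct to 1962 and 4784, whereas Nupr1 came to 1047 and 517, Fgf21 to 173 and 44.7, and Chchd10 to 3742 and 3154 CPM. The 25 cells held 12 UMIs of Malat1 and 4 of Neat1 in all, and their Pmel and Dct levels were below those of the other 86. Nupr1 was among the genes that picked both sets. Without the 25, the sum of the pigment genes over the reference was 0.08 on the log2 scale.

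**Figure D5:**
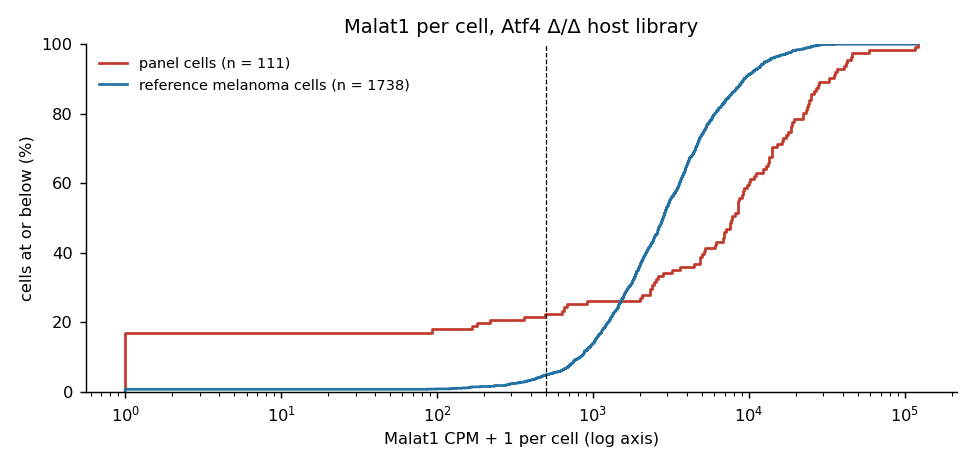
Cumulative percentage of cells of the Atf4 Δ/Δ host library against Malat1 CPM + 1 per cell (log axis), for 111 panel cells (red) and 1738 reference cells (blue), with 500 CPM dashed. The curves cross, with 22.5% of panel cells and 5.01% of reference cells under 500 CPM and the median panel cell at 7748 CPM.

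Within the rule, cells of the very lowest mt- share differed from the rest in a few stress and pigment genes. Between the 59 panel cells under 0.5% mt- UMIs and the 52 at 0.5 to 2% in the Atf4 Δ/Δ host library, Fgf21 was higher in the lowest cells by 2.04 on the log2 scale (47 and 12 UMIs), Atf3 by 0.70 (0.08 to 1.34), the reductase gene Cyb5r1 by 0.63 (0.16 to 1.11), Chchd10 by 0.22 (0.12 to 0.33) and Dct by 0.17 (0.08 to 0.26). Ccl5 was lower there (-1.21, -1.62 to -0.80), and the interval of Asns held 0 (-0.05, -0.33 to 0.23). Of the panel genes, which picked both sets, Nupr1 stood at 319 and 247 UMIs and Atf5 at 120 and 132. The Fgf21 and Ccl5 values rest on the few cells named above.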

How the data were processed

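Cells of subcutaneous B16F10 tumours were profiled by droplet 3′ single-cell RNA sequencing, with 1 library per host genotype. The authors aligned the reads to GRCm38 and counted UMIs with Cell Ranger 3.1.0, and the deposited values were raw UMI counts of 31053 genes per barcode, with no normalisation and no cell annotation. The labels and the study's methods name different versions of the kit.

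Cells were kept with 200 to 5000 genes, at least 1000 UMIs and at most 7.5% mt- UMIs, and no doublets were removed. UMIs were summed over the cells of a class and scaled to CPM. Ratios carry exact conditional binomial intervals, levels exact Poisson and shares exact Clopper-Pearson intervals, all at 95% and for counting error only. With 1 library per genotype no test was run and no p-value is given. A gene was tested with at least 20 UMIs over both classes and called past 2-fold with an interval off 0, counts under 3 being set to 3. How often a gene was seen was also taken with each cell thinned to 1000 UMIs.

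The members, gene lists and comparisons were chosen with earlier results of these data known. The planned rule that a gene pass 2-fold in both libraries was not used, since the Atf4 WT/WT host panel cells held 26893 UMIs in all and 656 of 689 genes it called had under 3 UMIs in them. The Atf4 Δ/Δ host library alone therefore gives the calls and the 12 named genes of each direction, taken by ratio among genes with at least 50 UMIs, and the planned ranking of genes between genotypes within panel cells was left out. Chchd10, Cyb5r1, S100a1, Erbb3, Fasn, Hmox1, Srxn1, Nqo1, the called p53 and interferon genes, Cdkn1a and Neat1 were named after their values were seen. The summing and calling steps were tested on simulated data. Analyses used Python 3.11.15, numpy 2.4.6, pandas 2.3.3, scipy 1.17.1, scanpy 1.11.5 (Scrublet) and edgeR 4.0.16 in R 4.3.3 (TMM factors only).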

Additional observations from a re-analysis of the deposited data

Results flagged for a closer look

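Cells with more than 7.5% mt- UMIs, which the rule and the reference leave out, also carried the panel. Of 1321 such melanoma-gated cells of the Atf4 Δ/Δ host library, 276 (20.9%, 18.7 to 23.2) had at least 3 panel genes, against 65 of 1446 (4.50%, 3.49 to 5.69) in the Atf4 WT/WT host library.

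Malat1 in melanoma-gated cells under 0.5% mt- UMIs moved in opposite directions in the 2 libraries. Relative to the reference of its own library its log2 ratio was 1.28 (1.24 to 1.33) in the Atf4 Δ/Δ host library, with 9703 against 3991 CPM in 60 cells, and -1.13 (-1.48 to -0.80) in the Atf4 WT/WT host library, with 1493 against 3264 CPM from 72 UMIs in 13 cells. The difference was not tested, and those 13 cells were shallow, with a median of 2599 UMIs.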

How the results depend on the processing

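No paired analysis was possible because the result comes from no test, with 1 library on either side. Of 159 values recomputed under alternatives, 129 stayed within the spread or 1.5 times of the reported value, 30 moved and 0 reversed a called direction. The cause was not tested unless the alternative itself gives it.

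The share of panel cells was 2.59% in the Atf4 Δ/Δ and 0% in the Atf4 WT/WT host library with an mt- limit of 1%, and 4.55% in the former with 3%. It was 2.49% in the Atf4 Δ/Δ host library with at least 4 panel genes, 0.317% in the Atf4 WT/WT host library with at least 2, and 0.748% and 0.0288% after thinning. The share of all 115 passing the gate, 75.7%, became 64% among panel cells found after thinning and 61.7% with all 4 pigment genes required.

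The log2 ratio of the 4 summed pigment genes, -0.03, was -0.36 after thinning, -0.060 with the gate of 4 pigment genes, -0.10 outside mt- genes, 0.015 outside mt- and ribosomal genes, 0.013 with at least 2 panel genes, 0.034 for gated members, 0.045 for members under 0.5% mt- UMIs, 0.082 without low-Malat1 members, and 0.12 under TMM and also against the reference without a G2/M UMI. Genes called higher became 689 under the rule on both libraries and 163 against that reference, and genes called lower 15 and 493, and 523 under TMM. That reference also gave medians of 0.21 for stress regulators and 0.42 for amino acid synthesis, and a reference with under 3 panel genes gave 0.93 for the latter. Nuclear subunits of respiratory complexes had a median of 0.27 under TMM. The log2 ratio of Atf4 between the libraries' panel cells, -1.04, was -2.87 after thinning and -0.21 among cells of 5000 to 15000 UMIs, on 16 UMIs or fewer in the Atf4 WT/WT host library. With an mt- limit of 1% it could not be computed, as that library then had no panel cell. Alternatives on Malat1, the lowest mt- share, depth and G2/M UMIs were chosen after seeing the data.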

Other observations

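Summed by chromosome, the panel cells of the Atf4 Δ/Δ host library stood within a log2 ratio of -0.21 (chromosome 1) and 0.40 (chromosome 19, which holds Malat1) of the reference over the autosomes. Malat1 held 11650 of the 47071 UMIs of chromosome 19 in panel cells. Chromosome 7, which holds Nupr1, Atf5 and Fgf21, was at 0.14, and these genes held only 566, 252 and 59 of its 105477 UMIs.

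Among reference cells, the stress genes differed between the 2 libraries, again 1 library each. In the Atf4 Δ/Δ against the Atf4 WT/WT host library the log2 ratio was 1.90 for Atf5, 1.77 for Trib3, 0.79 for Asns, 0.76 for Ddit3 and -0.14 for Atf4. In cells with 2 to 7.5% mt- UMIs and at least 3 panel genes, the log2 ratios of genes outside the panel were 1.23 for Trib3 (88.1 against 37.7 CPM), 0.55 for Asns, 0.42 for Ddit3 and -0.14 for Atf4.

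Interferon genes were higher in the 184 reference cells without a G2/M UMI than in the whole reference, of which those cells are a part, with a summed log2 ratio of 0.94. Autophagy and lysosome genes had a summed log2 ratio of 0.61 in panel cells, with 1 of 15 called higher and 1 lower, beside 2.93% and 6.88% of all genes tested.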
